A study of Mus musculus with 6 samples.

Results

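The platelet-derived growth factor (PDGF) system of the liver was examined at the RNA level through its 6 genes, the ligands *Pdgfa*, *Pdgfb*, *Pdgfc* and *Pdgfd* and the receptors *Pdgfra* and *Pdgfrb*. They were taken by symbol from a count table of 40481 genes, and all 6 were found and passed the filter on low counts. Livers came from C57BL/6 mice carrying a floxed *Mttp* (*Mttp f/f*) and Villin Cre ER T2, aged 12 to 16 weeks when an MCD diet began, which was fed for 3 weeks and ended with a fast of 4 h. *Mttp* encodes microsomal triglyceride transfer protein, which loads lipid onto apolipoprotein B, and the MCD diet lacks methionine and choline and injures the liver. *Mttp-IKO* mice had received tamoxifen 3 weeks before the diet, which activates the Cre in villin-expressing intestinal epithelium, whereas control littermates, labelled wild type, received vehicle. Tamoxifen itself and the intestinal deletion therefore cannot be told apart, and both groups ate the same diet, with no chow-fed pool. Each genotype gave 3 RNA-Seq libraries, each a pool of liver RNA from 3 to 4 mice by the study's methods. The labels count 12 livers and leave unclear whether that is per genotype. Pools are the replicates, so every p-value below measures the spread between pools and not between animals.

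PDGF ligands are disulfide-linked dimers secreted by endothelial cells, platelets, macrophages and epithelial cells, and their receptors are tyrosine kinases of mesenchymal cells. PDGF-A and PDGF-C act mainly through PDGF receptor α, PDGF-B binds both receptors, and PDGF-D acts mainly through PDGF receptor β. In the liver, receptor β is a long-standing marker of hepatic stellate cells, the vitamin A-storing pericytes that become collagen-producing myofibroblasts after injury, and PDGF-B is a strong mitogen for them.

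Pools held 25271585 to 36238734 reads on genes, so that 3 reads correspond to 0.0828 to 0.119 CPM (counts relative to a pool's total), and the least abundant member still had 52 reads in its lowest pool. Levels are given as CPM scaled by the trimmed mean of M-values (TMM), and differences as log2 fold changes of *Mttp-IKO* against control from edgeR's quasi-likelihood test, called at an adjusted p under 0.05 over all 17287 genes tested. Liver *Mttp* was at 90.4, 186 and 175 CPM in the controls, against 145, 129 and 161 CPM in *Mttp-IKO*, which is no check of a deletion made in the intestine. Hepatocyte markers were abundant in every pool, with a summed level of 56920 to 92739 CPM in controls and 112548 to 167450 CPM in *Mttp-IKO*. Control pool 2 stood apart by striated muscle transcripts, at 766 CPM. Control pool 1 also held them, at 98.5 CPM, against 0.461 to 1.22 CPM in the remaining pools. *Mttp-IKO* pool 3 stood apart by small RNAs, at 0.290% of reads against 1.92 to 3.51% elsewhere. Fits without control pool 2 and *Mttp-IKO* pool 3 still include control pool 1.

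All 6 genes had a lower mean in *Mttp-IKO* liver, with a median log2 fold change of -0.81 against 0.0057 over all genes tested. The fall passed the test for *Pdgfb* and *Pdgfrb*, 2 of 6 genes, where 3.09% of tested genes were called lower. No member was called higher by edgeR, DESeq2 or limma-voom, where edgeR called 0.92% of tested genes higher. At an unadjusted p under 0.05, 0 members were higher, against 9.53% of tested genes. At an unadjusted p under 0.05, 4 of 6 were lower, *Pdgfa* and *Pdgfc* being the other two, against 13.5% of tested genes. In 5 of 6, every *Mttp-IKO* pool lay below every control pool, which was so for 16.5% of tested genes. Control pool 2 and *Mttp-IKO* pool 3 were then both left out, a choice made after the data were seen. Control pool 2 was the lowest control for every member but *Pdgfa*, so its removal raises their control means. Without both pools, 2 members were again called lower and all 6 were lower at an unadjusted p under 0.05. In that fit 8.78% of tested genes were called lower and 17.5% were lower at an unadjusted p under 0.05.

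**Figure D1:**
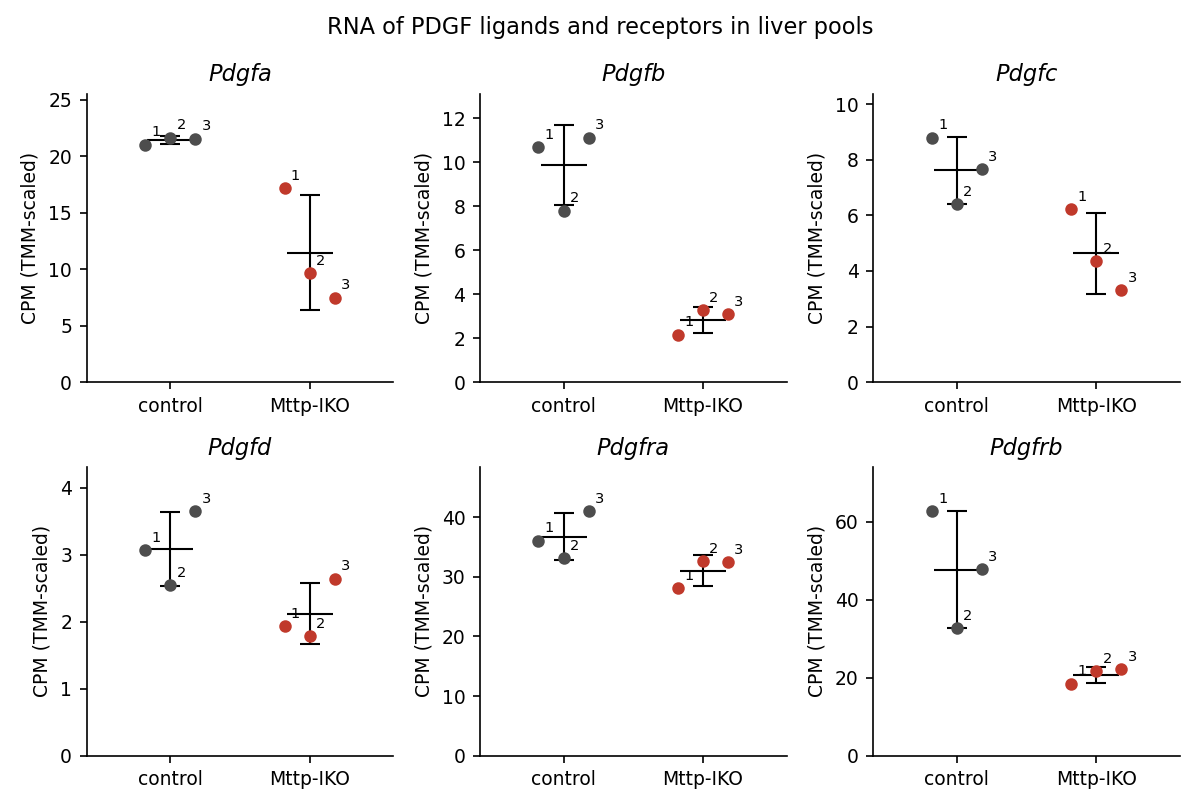
Level of each PDGF gene (TMM-scaled CPM, vertical axis from 0) in the 3 control and 3 *Mttp-IKO* pools, numbered by pool, with the mean and SD as horizontal bars. Groups are apart in all panels but *Pdgfd*, and the gap in *Pdgfra* is between 33.1 and 32.6 CPM.

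Among the ligands, *Pdgfb* (ENSMUSG00000000489, GRCm38 chromosome 15, 79995900 to 80014808, minus strand) encodes the B chain, a product of endothelial cells, platelets and macrophages that recruits pericytes. It stood at 10.7, 7.79 and 11.1 CPM in the controls, against 2.16, 3.26 and 3.10 CPM in *Mttp-IKO*. The lowest control pool was more than 4 CPM above the highest *Mttp-IKO* pool. The means were 9.87 ± 1.81 and 2.84 ± 0.595 CPM (SD, n = 3 each), a 3.48-fold fall (log2 fold change -1.80, SE 0.25, 95% confidence interval -2.37 to -1.23, edgeR adjusted p = 0.0181). By p-value it was gene 77 of all tested. Without the 2 pools that stood apart the log2 fold change was -2.02 (edgeR adjusted p = 0.00436). The call was lost when control pool 1, control pool 3, *Mttp-IKO* pool 1 or *Mttp-IKO* pool 2 was left out (edgeR adjusted p = 0.0789, 0.0752, 0.0613 and 0.0954), with a log2 fold change of at most -1.63 in each.

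*Pdgfa* (ENSMUSG00000025856, chromosome 5, 138976014 to 138997370, minus strand) encodes the A chain, the classical ligand of receptor α. Its 3 control pools were nearly identical, at 21.0, 21.7 and 21.6 CPM, whereas the *Mttp-IKO* pools spread over 17.2, 9.67 and 7.47 CPM. Every *Mttp-IKO* pool was below the controls, but pool 1 was much closer to them than the other two. The means were 21.4 ± 0.337 and 11.4 ± 5.09 CPM (SD, n = 3 each), and the log2 fold change of -0.90 (SE 0.29, 95% confidence interval -1.57 to -0.24) did not pass over all genes (edgeR adjusted p = 0.120). It passed narrowly with DESeq2 (adjusted p = 0.0493). An antisense gene on the other strand, 6330403L08Rik, shares 813 exonic bases with *Pdgfa* and held 195 to 510 reads per pool. No source used here gives the strand setting of the counting. If strand was ignored, reads overlapping both genes would have been left out, because only reads of 1 gene were counted. That would lower the counts of both genes. The antisense gene had a log2 fold change of 0.54 (edgeR adjusted p = 0.276).

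*Pdgfc* and *Pdgfd* encode the CUB-domain ligands, which are secreted in a latent form and become active when a protease removes the CUB domain. *Pdgfc* (ENSMUSG00000028019, chromosome 3, 81036416 to 81214040, plus strand) was at 8.80, 6.40 and 7.65 CPM in the controls, against 6.22, 4.36 and 3.31 CPM in *Mttp-IKO*. The groups did not overlap, although the nearest pools were 6.40 and 6.22 CPM. From 7.62 ± 1.20 to 4.63 ± 1.47 CPM (SD, n = 3 each), its log2 fold change was -0.71 (SE 0.27, 95% confidence interval -1.33 to -0.096, edgeR adjusted p = 0.167). *Pdgfd* (ENSMUSG00000032006, chromosome 9, 6168612 to 6378843, plus strand) was the least abundant of the ligands, at 3.07, 2.55 and 3.65 CPM in the controls, against 1.93, 1.78 and 2.64 CPM in *Mttp-IKO*. *Mttp-IKO* pool 3 lay above control pool 2. The log2 fold change of *Pdgfd* was -0.55 (SE 0.28, 95% confidence interval -1.19 to 0.093, edgeR adjusted p = 0.282), so that a fall of about 2-fold and no change were both within the interval. Gm16000, antisense to *Pdgfc* with 147 shared exonic bases, held 2 to 21 reads, and *Ddi1*, which lies within *Pdgfd* on the other strand and shares 0 exonic bases with it, held 6 to 27 reads.

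Of the receptors, *Pdgfrb* (ENSMUSG00000024620, chromosome 18, 61045150 to 61085061, plus strand) encodes receptor β. Its control pools were at 62.8, 32.7 and 47.8 CPM and its *Mttp-IKO* pools at 18.5, 21.6 and 22.2 CPM. Controls differed widely among themselves, *Mttp-IKO* pools were close together, and the groups did not overlap. The means of 47.8 ± 15.0 and 20.8 ± 2.01 CPM (SD, n = 3 each) correspond to a 2.30-fold fall (log2 fold change -1.20, SE 0.24, 95% confidence interval -1.75 to -0.65, edgeR adjusted p = 0.0378). Without the 2 pools that stood apart it was -1.47 (edgeR adjusted p = 0.00437). This call was less secure than that of *Pdgfb*. Leaving out control pool 1, which had the highest level, gave -0.98 (edgeR adjusted p = 0.117), and omitting control pool 3, or any of the 3 *Mttp-IKO* pools in turn, gave adjusted p-values of 0.129, 0.0930, 0.135 and 0.0501. Only without control pool 2 did it remain called among the single omissions (edgeR adjusted p = 0.0125), and limma-voom gave an adjusted p of 0.0533.

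*Pdgfra* (ENSMUSG00000029231, chromosome 5, 75152291 to 75198204, plus strand) encodes receptor α, found on stellate cells and portal fibroblasts. It was at 36.1, 33.1 and 41.0 CPM in the controls, against 28.1, 32.6 and 32.4 CPM in *Mttp-IKO*. The nearest pools of the groups all but touched. The means were 36.7 ± 4.00 and 31.0 ± 2.54 CPM (SD, n = 3 each), and the log2 fold change of -0.24 had a 95% confidence interval of -0.59 to 0.10 (SE 0.15, edgeR adjusted p = 0.368). A fall as large as that of *Pdgfrb* lay outside this interval. Within its span, on the other strand, the annotation also places Gm42802 and Gm42803, which share 456 and 166 exonic bases with *Pdgfra*. Neither is among the counted genes, so their reads could count as *Pdgfra* if strand was ignored. The microRNA gene *Mir7025*, also within *Pdgfra*, held 0 to 2 reads. *Mir7213* within *Pdgfb*, beside the antisense Gm41361, held 0 to 1.

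**Figure D2:**
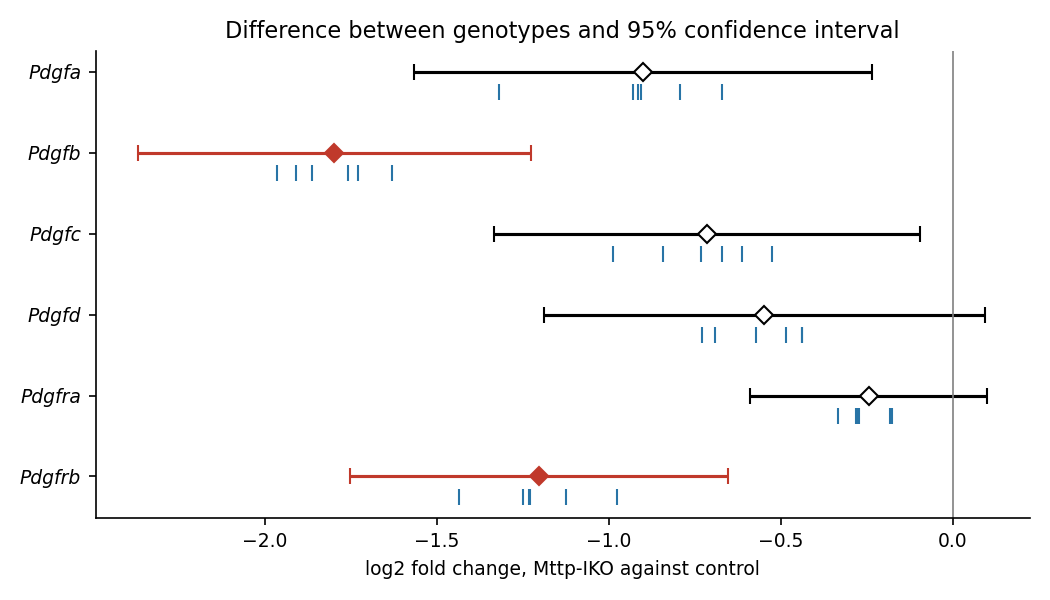
Log2 fold change of *Mttp-IKO* against control for each PDGF gene (diamonds, red where the edgeR adjusted p is under 0.05) with its 95% confidence interval, and the 6 values with 1 pool left out as blue ticks beneath. Every tick lies below 0, and the largest falls are those of *Pdgfb* at -1.80 and *Pdgfrb* at -1.20.

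Upstream sequences from RefSeq (GRCm38.p6) were found for 4 of the 6 genes, and 250 bases before the start are shown for a ligand and a receptor whose windows hold no annotated exon, with CpG dinucleotides in capitals.
*Pdgfc*, chr3:81036166-81036415, plus strand: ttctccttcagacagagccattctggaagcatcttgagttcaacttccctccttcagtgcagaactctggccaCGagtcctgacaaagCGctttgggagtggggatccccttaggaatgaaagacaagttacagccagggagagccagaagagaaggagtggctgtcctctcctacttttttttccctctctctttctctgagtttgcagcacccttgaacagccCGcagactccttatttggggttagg
*Pdgfra*, chr5:75152001-75152250, plus strand: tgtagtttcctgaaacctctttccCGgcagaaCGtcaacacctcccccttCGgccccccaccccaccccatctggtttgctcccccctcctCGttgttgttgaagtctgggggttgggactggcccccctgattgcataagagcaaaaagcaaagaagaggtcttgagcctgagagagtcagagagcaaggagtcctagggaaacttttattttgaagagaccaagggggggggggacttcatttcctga
The *Pdgfc* window held 3 CpG and the *Pdgfra* window 4, against a median of 6 over 32851 such windows. The *Pdgfd* window also held 3. The *Pdgfa* windows, of which there were 2 for its 2 annotated starts, were CpG-rich, with 28 and 19 CpG, and they are not printed because part of each is annotated as exon. Of 7 motifs searched on both strands, GGGCGG (a GC box) was found in both *Pdgfa* windows and in 32.7% of all windows, and TATAAA in the *Pdgfd* window and in 12.4% of all. GGAATG (TEAD) and CAGACA (SMAD) were each found once in the *Pdgfc* window, and in 12.6% and 17.1% of all windows. The CCAAT box, the AP-1 element TGANTCA and the EGR element GCGNGGGCG were in none of the 5 windows, and none of the 7 motifs was in that of *Pdgfra*. These matches describe letters only, and the genes whose windows differ so in composition all had lower means in *Mttp-IKO* liver.

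Levels of different genes can be compared only per length. As RPKM (the TMM-scaled CPM per kilobase of gene length), control liver had *Pdgfrb* at 8.72 ± 2.74, *Pdgfa* at 6.86 ± 0.108, *Pdgfra* at 5.45 ± 0.593, *Pdgfb* at 3.38 ± 0.620, *Pdgfc* at 1.50 ± 0.236 and *Pdgfd* at 0.992 ± 0.177 (SD, n = 3). The range of *Pdgfrb*, 5.98 to 11.5 RPKM, overlapped those of *Pdgfa* and *Pdgfra*, and each of the lower neighbours in that order was apart from the next. In *Mttp-IKO* liver the order was *Pdgfra* at 4.60 ± 0.378, *Pdgfrb* at 3.79 ± 0.366, *Pdgfa* at 3.67 ± 1.63, *Pdgfb* at 0.973 ± 0.204, *Pdgfc* at 0.910 ± 0.289 and *Pdgfd* at 0.680 ± 0.147 RPKM. Here *Pdgfrb* was below *Pdgfra* in each of the 3 pools, and *Pdgfb*, *Pdgfc* and *Pdgfd* overlapped from one to the next.

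Summed over the 4 ligands, the level per length was 12.7 ± 0.916 RPKM in control and 6.23 ± 1.65 RPKM in *Mttp-IKO* pools (SD, n = 3). Over the 2 receptors it was 14.2 ± 3.01 and 8.39 ± 0.741 RPKM. *Pdgfb* made up 26.4 ± 3.09% of ligand RNA in controls and 16.8 ± 6.68% in *Mttp-IKO* pools, where it ranged from 9.15 to 21.5%. *Pdgfa* was the main ligand in both, at 54.1% and 57.1%. *Pdgfrb* made up 54.9 to 68.2% of receptor RNA in controls and 44.7 to 45.7% in *Mttp-IKO* pools. The genotypes thus differed in which receptor had the more RNA per length, although single pools were not tested for it. Control pool 2 had 1181 reads of *Pdgfrb* and 1194 of *Pdgfra*, so its order rests on the gene lengths used.

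**Figure D3:**
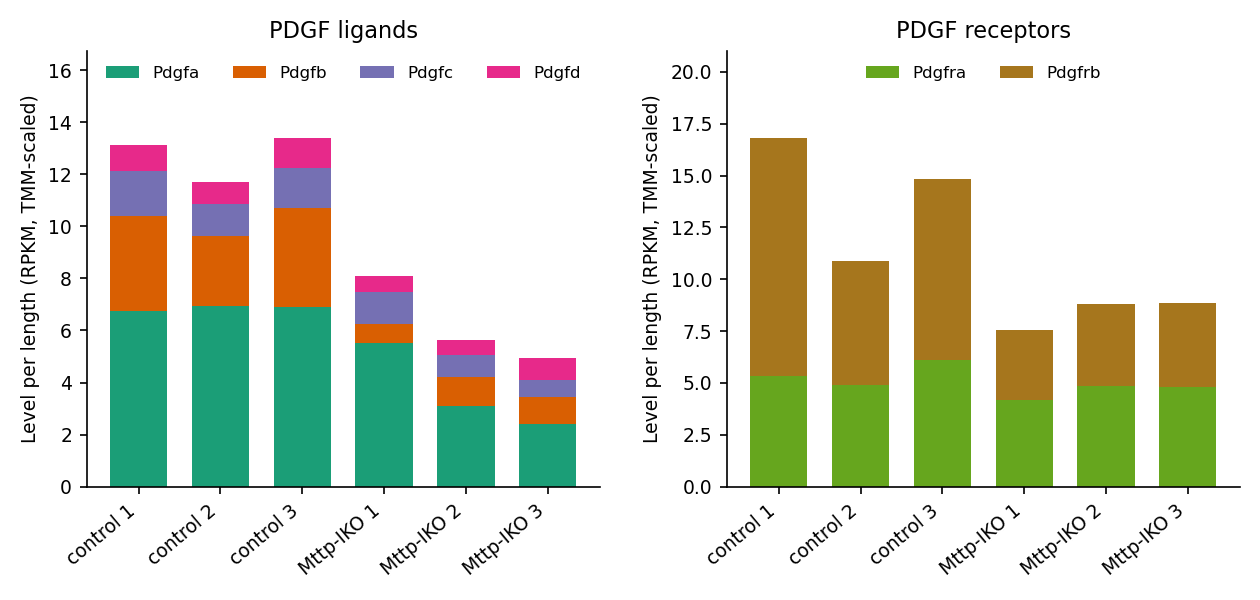
Level per length (TMM-scaled RPKM, stacked from 0) of the 4 ligands and the 2 receptors in each pool. The ligand stacks are lower in the 3 *Mttp-IKO* pools. Between the group means, the largest fold is in *Pdgfb* and the largest loss of RPKM in *Pdgfa*. *Pdgfrb* is the larger part of the receptor stack in the 3 control pools only.

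Ratios of reads within a pool do not depend on scaling and were used to ask whether pairs of PDGF genes differed between genotypes by the same factor. With 3 pools against 3, the exact two-sided permutation test cannot go below 0.1, so none of the 6 ratios compared could pass 0.05. The log2 ratio of *Pdgfrb* to *Pdgfra* was 0.80, -0.016 and 0.22 in control pools and -0.60, -0.59 and -0.54 in *Mttp-IKO* pools. It was lower in 3 of 3 *Mttp-IKO* pools, by 0.91 on average or 1.88-fold (exact permutation p = 0.1, 0.2 after Benjamini-Hochberg adjustment over 6 ratios). The log2 ratio of *Pdgfb* to *Pdgfrb* differed by -0.64, again without overlap (exact permutation p = 0.1, adjusted 0.2), the ligand falling further than its receptor. For *Pdgfa* to *Pdgfra* the difference was -0.75, but *Mttp-IKO* pool 1, at -0.71, lay among the controls (exact permutation p = 0.3, adjusted 0.45). For *Pdgfd* to *Pdgfc* the groups overlapped, with a difference of 0.21 (exact permutation p = 0.8, adjusted 0.8) that turned to -0.18 without *Mttp-IKO* pool 3.

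Because both receptors mark mesenchymal cells, RNA of those cells was read alongside. The marker lists here and below were chosen with earlier results of these data known, so their call counts are a description only. Over all tested genes, edgeR called 3.09% lower, and 8.78% without the 2 pools that stood apart. Of 9 markers of quiescent stellate cells, 3 were called lower and 0 higher, with a median log2 fold change of -0.55. *Ngfr*, a neurotrophin receptor, was at -2.78, *Lrat*, which esterifies retinol, at -1.71, and the collectin *Colec11* at -1.65. Their summed level was 618 to 756 CPM in controls and 459 to 599 CPM in *Mttp-IKO*. Of 8 markers of activated stellate cells and myofibroblasts, 7 were called lower, with a median of -2.00. The fibrillar collagen genes *Col3a1*, *Col1a1* and *Col1a2* were at -3.93, -3.72 and -2.88, the actin-binding or contractile genes *Acta2* and *Tagln* at -2.02 and -1.64, the collagen cross-linking enzyme *Lox* at -1.99 and the matrix protein *Postn* at -1.64. Their summed level was 359 to 1062 CPM in controls and 67.8 to 82.0 CPM in *Mttp-IKO*. Without the 2 pools that stood apart, 6 of 9 quiescent and 8 of 8 activated markers were called lower, and limma-voom called 3 and 4. In whole liver, fewer cells of a type and less RNA per cell cannot be told apart.

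Set against the mean log2 level of the 9 quiescent stellate cell markers, *Pdgfra* was at -0.31, -0.097 and -0.15 in control pools and 0.50, 0.50 and 0.49 in *Mttp-IKO* pools. It was thus higher relative to these markers in 3 of 3 *Mttp-IKO* pools, by 0.68 (exact permutation p = 0.1, adjusted 0.2). *Pdgfrb* against the same markers was at 0.49, -0.11 and 0.070 in control pools and -0.10, -0.088 and -0.059 in *Mttp-IKO* pools, and the groups overlapped (difference -0.23, exact permutation p = 0.4, adjusted 0.48). Both values rest on *Ngfr*, *Lrat* and *Colec11*. Against the other 6 markers, a choice made after their values were seen and not tested, the difference was 0.13 with overlap for *Pdgfra* and -0.78 without overlap for *Pdgfrb*. Against the activated markers, a ratio added after the values were seen, *Pdgfrb* was 1.20 higher on the log2 scale in *Mttp-IKO* (exact permutation p = 0.1). Within the controls, pool 1 had the highest *Pdgfrb* and the highest activated marker sum, 1062 CPM, and pool 2 the lowest of both, 359 CPM. Among *Mttp-IKO* pools, pool 1 had the lowest *Pdgfrb* and the highest activated marker sum, 82.0 CPM. The part of these cells in the *Pdgfrb* result was not tested.

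**Figure D4:**
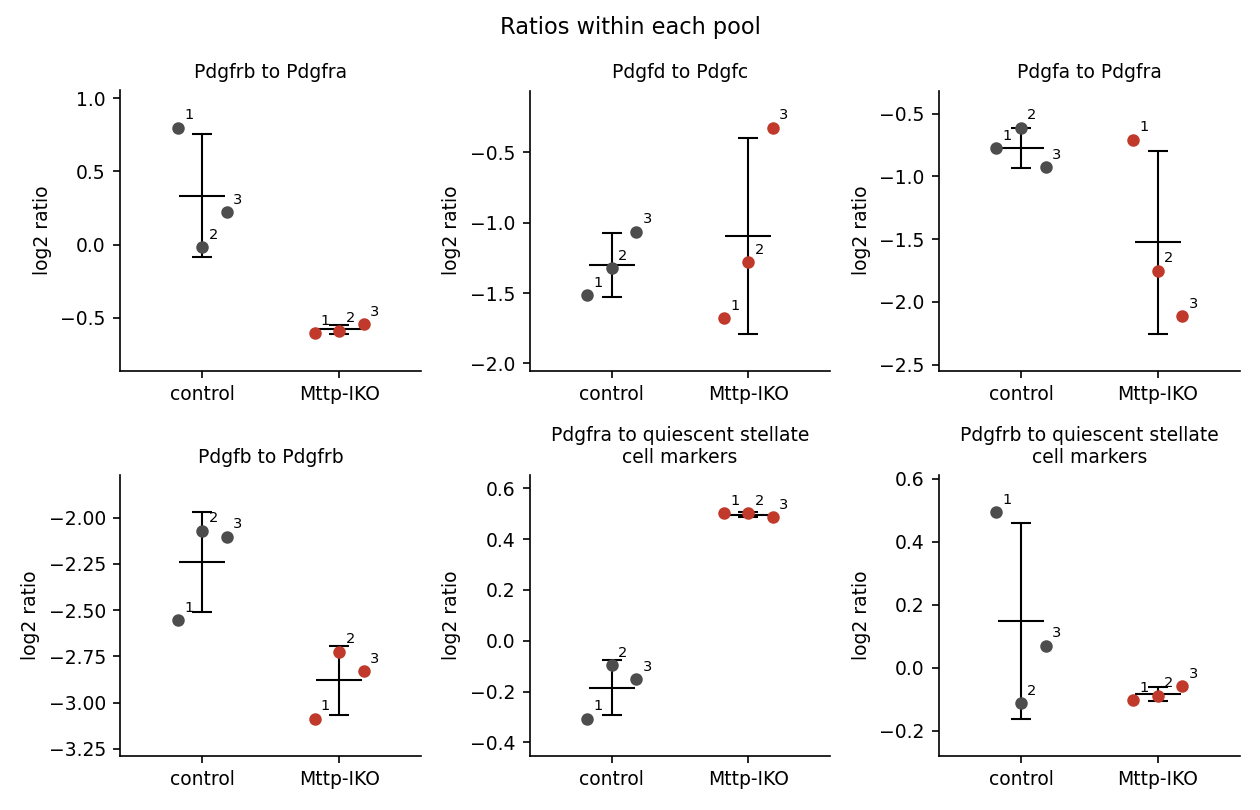
Log2 ratios within each pool (numbered points, with mean and SD) for pairs of PDGF genes and for each receptor against the mean log2 level of 9 quiescent stellate cell markers; each vertical axis has its own range. The *Pdgfrb* to *Pdgfra* ratio is lower and the *Pdgfra* to marker ratio higher in all 3 *Mttp-IKO* pools, by 0.91 and 0.68, the latter 0.13 without the 3 markers called lower.

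Other cells that carry the receptors showed lower marker RNA as well. Of 7 portal fibroblast markers, 2 were called lower (*Mfap4* at -2.54 and *Fbln2* at -1.30, both of elastic fibres, median of the list -1.37). Of 5 smooth muscle markers, 2 were called lower (*Myh11*, smooth muscle myosin, at -1.62 and *Smtn* at -0.94, median -1.29). No listed marker of either was higher, and their summed levels were 35.3 to 55.3 and 31.4 to 38.3 CPM in controls against 12.2 to 22.9 and 11.9 to 16.3 CPM in *Mttp-IKO*. Mesothelial markers had 0 of 4 called by edgeR, DESeq2 and limma-voom, with 0 at an unadjusted p under 0.05 and a median of -0.030. *Upk3b* and *Lrrn4* were the more abundant of these, at -0.58 and -0.12.

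For the ligand-making cells, 8 endothelial markers had 0 calls by edgeR, DESeq2 and limma-voom, 1 at an unadjusted p under 0.05 and a median of -0.12. Their sum was 406 to 435 CPM in controls and 389 to 419 CPM in *Mttp-IKO*. *Stab2*, a sinusoidal scavenger receptor, was at 0.15 and *Cdh5*, VE-cadherin, at -0.16. Against the mean log2 level of these markers, *Pdgfb* was -1.98, -2.39 and -1.95 in control pools and -4.16, -3.57 and -3.66 in *Mttp-IKO* pools, a difference of -1.69 with no overlap (exact permutation p = 0.1). This ratio was also added after the values were seen. Platelet markers were scarce, at 6.32 to 9.52 CPM summed in controls and 5.97 to 9.61 CPM in *Mttp-IKO*, and only *Pf4*, *Ppbp* and *Itga2b* of 6 passed the filter. None of these 3 was called by edgeR, DESeq2 or limma-voom, and 0 were at an unadjusted p under 0.05.

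Macrophages also make PDGF-B. Of 6 markers of recruited macrophages, 5 were called lower, with a median of -2.53. These were *Itgax* at -2.78, *Cx3cr1* at -2.78, *Trem2* at -2.62, *Ccr2* at -2.20 and *Ly6c2* at -1.84, and the sum over all 6 was 218 to 703 CPM in controls and 42.3 to 123 CPM in *Mttp-IKO*. The most abundant of the 6, at a mean of 436 CPM in controls, was not called (edgeR adjusted p = 0.0588). Among controls, pool 2 was the lowest in both *Pdgfb* and the macrophage sum. Among *Mttp-IKO* pools, pool 1 was the lowest in both. Control pool 2 was also lowest among controls for both stellate cell lists, portal fibroblasts, smooth muscle, platelets, Kupffer cells and cholangiocytes. *Mttp-IKO* pool 1 was also lowest in its group for endothelial and quiescent stellate cell markers, so neither match was particular to macrophages. Of 5 Kupffer cell markers, 1 was called, *Timd4*, which was higher at 1.16 and was called neither by limma-voom nor without control pool 2, and the list's median was 0.12. The part of these cells in the *Pdgfb* result was not tested. Cholangiocyte markers had 0 of 5 called by edgeR and limma-voom, 1 by DESeq2 and 1 at an unadjusted p under 0.05 (median -0.22, with *Sox9* at 0.11 and *Krt19* at -0.22). Hepatocyte markers had 0 of 8 called by edgeR and limma-voom, 4 by DESeq2 and 5 at an unadjusted p under 0.05, all higher (median 0.72, with *Alb* at 0.95 and *Apoa1* at 0.98). Striated muscle markers passed the filter for 2 of 6 genes, *Acta1* and *Mylpf*, of which 0 were called by edgeR and limma-voom, 2 by DESeq2 and 2 were at an unadjusted p under 0.05.

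PDGF ligands must be cut to become active, and the genes listed for their activation and as extracellular partners moved in both directions. Of 9 genes of ligand activation and extracellular partners, 3 were called lower and 2 higher, with a median log2 fold change of -1.16. *Plau*, urokinase, which can activate PDGF-D, was at 13.4, 7.15 and 13.7 CPM in the controls, against 2.10, 2.57 and 1.89 CPM in *Mttp-IKO* (log2 fold change -2.38, SE 0.30, edgeR adjusted p = 0.0166). *Plat*, tissue plasminogen activator, which activates PDGF-C, was at 8.98, 3.60 and 4.56 CPM in the controls, against 2.10, 1.41 and 1.26 CPM in *Mttp-IKO* (log2 fold change -1.84, SE 0.40, edgeR adjusted p = 0.0476). Both of these protease genes were therefore lower without overlap, *Plat* close to the threshold. Another protease gene of the list was at -1.16, also without overlap, and was not called (edgeR adjusted p = 0.0895). *Sparc*, a matrix protein that binds PDGF-B, fell from 143 ± 51.3 to 43.3 ± 6.29 CPM (SD, n = 3 each; log2 fold change -1.72, edgeR adjusted p = 0.0231). The proprotein convertases that process PDGF-A and PDGF-B rose. *Furin* was at 583, 674 and 596 CPM in the controls, against 978, 1398 and 1261 CPM in *Mttp-IKO* (log2 fold change 0.97, SE 0.20, edgeR adjusted p = 0.0435), and *Pcsk5* rose from 25.2 ± 1.29 to 39.5 ± 3.80 CPM (log2 fold change 0.65, edgeR adjusted p = 0.0478). limma-voom did not call *Plat* (adjusted p = 0.0785) or *Pcsk5* (adjusted p = 0.0584), leaving 2 lower and 1 higher. Neither *Furin* nor *Pcsk5* was called without control pool 2, when the list had 3 lower and 0 higher calls, and with both doubtful pools out it had 5 lower and 2 higher.

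Inside the cell, 25 genes of receptor-bound transducers and kinases had 0 calls by edgeR and by limma-voom, and 2 by DESeq2, both lower. DESeq2 called 1338 of all 17287 genes lower. At an unadjusted edgeR p under 0.05, 4 of the 25 were lower and 2 higher, against 13.5% and 9.53% of tested genes. The median log2 fold change of the 25 was 0.056. *Stat3* and *Map2k2*, the most abundant on average, were at 0.67 (edgeR adjusted p = 0.154) and 0.099. With both doubtful pools left out, 4 of the 25 were called lower, against 8.78% of tested genes. Of 13 attenuators, 1 was called higher and 0 lower (median 0.32), with 4 higher at an unadjusted p under 0.05. That gene was *Dusp4*, a phosphatase of MAP kinases, at 13.8, 11.7 and 9.12 CPM in the controls, against 27.5, 17.9 and 25.3 CPM in *Mttp-IKO* (log2 fold change 1.03, SE 0.23, edgeR adjusted p = 0.0488). No attenuator was called by limma-voom.

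Of 12 immediate-early target genes, 1 was called lower and 0 higher (median 0.065). *Egr2*, a zinc-finger transcription factor, was at 10.7, 3.88 and 8.09 CPM in the controls, against 2.03, 1.71 and 1.34 CPM in *Mttp-IKO* (log2 fold change -2.15, SE 0.39, edgeR adjusted p = 0.0306), and was not called by limma-voom. Of 16 related receptors and their ligands, 14 were tested, 1 was called lower and 1 higher (median -0.0043). *Flt3*, a receptor of hematopoietic progenitors and dendritic cells, was at 5.73, 2.91 and 3.44 CPM in the controls, against 0.548, 0.720 and 1.09 CPM in *Mttp-IKO* (log2 fold change -2.37, edgeR adjusted p = 0.0241). *Flt1*, VEGF receptor 1, rose from 30.1 ± 1.89 to 50.5 ± 1.82 CPM (SD, n = 3 each; log2 fold change 0.75, edgeR adjusted p = 0.0300). Over all 73 pathway genes tested outside the 6 members, 5 were called lower and 4 higher, against 3.09% and 0.92% of all tested genes. Their median was 0.030, close to that of all genes. By edgeR, 0 of these pathway genes stayed called when control pool 1, control pool 3, *Mttp-IKO* pool 1 or *Mttp-IKO* pool 2 was left out.

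**Figure D5:**
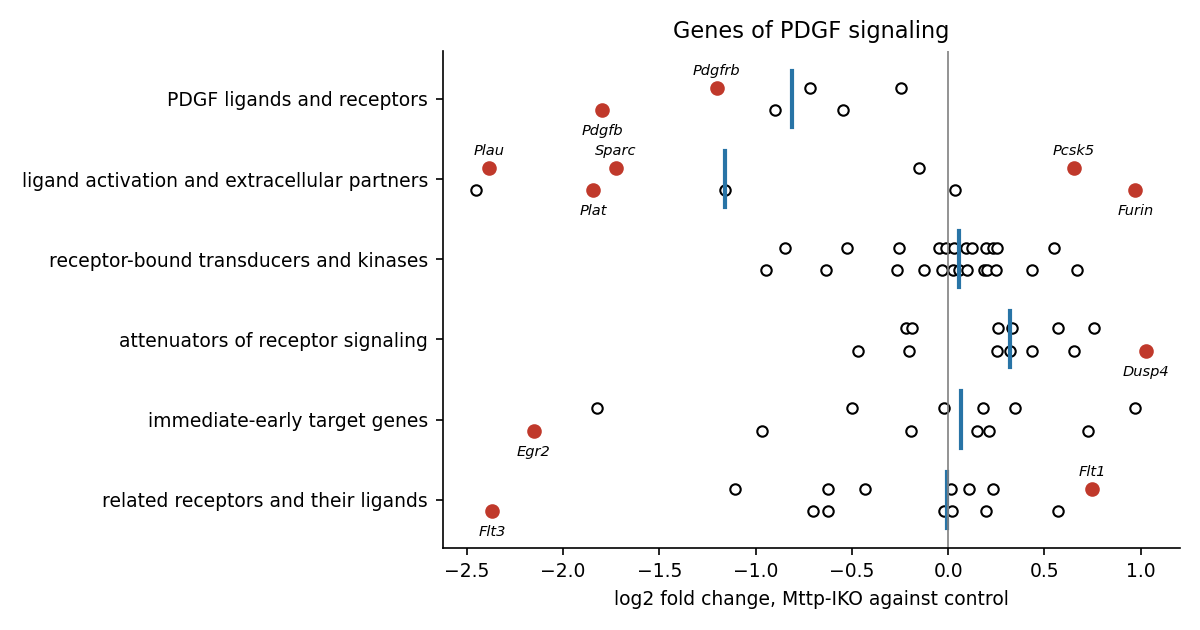
Log2 fold change of *Mttp-IKO* against control for the 6 PDGF genes and 5 lists of pathway genes, each point a gene, red and named where the edgeR adjusted p is under 0.05, with the list median as a blue bar. The medians of the PDGF genes (-0.81) and of the ligand activation list (-1.16) are below 0, and those of the transducers, immediate-early genes and related receptors lie within 0.1 of 0.

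The genes whose log2 CPM followed each member most closely were sought among 11798 protein-coding genes over the 6 pools, a description in which the genotype difference is part of each correlation. *Pdgfb* was matched by *Csrp2*, *Igsf10*, *Plxdc1*, *Fam219a* and *Lama2* (Pearson r 0.996 to 0.998), of which all but *Fam219a* were themselves called lower. *Pdgfrb* was matched by *Frmd4a*, *Adcyap1r1*, *Setbp1*, *Sorl1* and *Rnf150* (r 0.995 to 0.998), of which *Adcyap1r1*, *Sorl1* and *Rnf150* were called lower. *Pdgfc* was matched by *Ccl2*, a macrophage chemokine, at r = 0.999, and *Hist1h3g*, *Actb* and *Hspa1a* were also among its nearest genes (r 0.996). The nearest genes to *Pdgfa* were *Nans*, *BC031181*, *LTO1*, *Apex1* and *Eml6* (r 0.989 to 0.994). *Pdgfra* was followed by *Astn2*, *Vrk2*, *Ccrl2*, *Degs1* and *Daglb* (r 0.970 to 0.991). *Pdgfd*, whose closest match had the lowest r of the 6, was followed by *Efna5*, *Lipa*, *Gas2l3*, *Hgf* and *Eif4e3* (r 0.972 to 0.979). No gene was among the 5 nearest of more than 1 member.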

How the data were processed

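Total liver RNA pools were sequenced after ribosomal RNA depletion. Per the labels and the article, the authors aligned reads to the Ensembl release 76 assembly (GRCm38) with STAR 2.5.1a and used featureCounts 1.4.6-p5 to count, for each gene, reads with 1 alignment and 1 gene. The deposited counts are not normalized. The deposited CPM and RPKM values follow from those counts and were not tested. Reads that align to several places were not counted, and the strand setting is not given in the sources used here. In the series table, 276 repeated lines were dropped. The 907 genes of the pool files without a line there were kept under their gene identifier, and filtered and tested with the rest.

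Counts were filtered with filterByExpr (minimum count 10), scaled by TMM and tested with edgeR 4.0.16 (R 4.3.3) by quasi-likelihood, with genotype as the only term, no replicate block and Benjamini-Hochberg adjustment over all genes. On simulated data the script recovered 16 of 100 genes changed 2-fold and 74 of 100 changed 4-fold. A missing call therefore does not show that a gene was unchanged. DESeq2 1.42.0, limma-voom (limma 3.58.1), other scalings and filters, a length trend and single-pool omissions were alternatives. A check of all pairs of libraries found none within sampling noise. Ratios used 0.5 added reads and exact permutation tests (scipy 1.17.1). Levels per length divided scaled CPM by the deposited gene length.

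Members, pathway lists and marker lists were chosen with earlier results of these data known. Named are the 6 members, each list's called genes (at most 8) or, with none called, its 2 most abundant, the 5 genes with the highest r to each member, and overlapping genes. An item covered by this rule is not reported here.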

Additional observations from a re-analysis of the deposited data

How the results depend on the processing

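The 6 PDGF genes were lower in *Mttp-IKO* under each of 19 alternatives, with log2 fold changes of -2.02 to -1.63 for *Pdgfb*, -1.47 to -0.98 for *Pdgfrb*, -1.32 to -0.67 for *Pdgfa*, -0.99 to -0.52 for *Pdgfc*, -0.86 to -0.44 for *Pdgfd* and -0.43 to -0.18 for *Pdgfra*. *Pdgfb* was called in 15 of 19 and *Pdgfrb* in 12 of 19. The alternative at an adjusted p under 0.1 was the main fit again, so its fold changes and these calls were fixed in advance. With a robust dispersion the fold changes were also those of the main fit. No member was called higher in any. Replicate numbers were not taken as pairs, because same-numbered pools deviated together with r = 0.189, 0.144 and 0.0297, although each pool correlated best with its own number. With the replicate block, 1 member was called lower (*Pdgfb*, -1.80, edgeR adjusted p = 0.0317) and *Pdgfrb* lost its call (-1.16, edgeR adjusted p = 0.0552), and 5 pathway genes were called. limma-voom called 1 member, 428 genes and 5 pathway genes, and DESeq2 called 1995 genes and 18 pathway genes, against 694 and 9. At an adjusted p under 0.1 there were 1658 genes and 15 pathway genes, and without control pool 2 and *Mttp-IKO* pool 3, chosen after seeing the data, 2146 and 17. With 1 pool left out, 0 to 2 members, 0 to 892 genes and 0 to 10 pathway genes were called, with 24 genes without control pool 1, 21 without control pool 3, 55 without *Mttp-IKO* pool 1 and 0 by edgeR without *Mttp-IKO* pool 2, where 3221 had an unadjusted p under 0.05. Fewer pools were fitted there. The log2 ratio of *Pdgfd* to *Pdgfc* ranged from -0.18 to 0.50 in these omissions. Without the 3 quiescent markers called lower, the difference in ratio to these markers was 0.13 for *Pdgfra* and -0.78 for *Pdgfrb*, those 3 having fallen most. The causes of the other changes were not tested. Scaling to total counts moved the median of all genes to -0.17. Depth limits *Pdgfd* most, at 52 to 124 reads per pool.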
